A study of Mus musculus with 14 samples.

Results

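The genes described here encode the nuclear subunits of the mitochondrial respiratory chain and of ATP synthase, measured in mouse lung with and without mechanical ventilation. A gene was taken when its symbol in the probe table began with Nduf, Uqcr, Cox4, Cox5, Cox6, Cox7, Cox8 or Atp5, or was Sdha, Sdhb, Sdhc, Sdhd or Cycs, and each gene was represented by its probe of highest mean intensity over all arrays. Of 13923 genes on the array, 79 met this rule, through 81 probes. They comprised 31 subunits of complex I, 6 complex I assembly factors (Ndufaf genes), 4 subunits of complex II, 7 of complex III, cytochrome c (Cycs), 15 of complex IV and 15 of ATP synthase. Ndufa4 was counted with complex IV, to which its protein belongs despite its name.

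Complexes I and II pass electrons from NADH and succinate through complex III and cytochrome c to complex IV, which reduces oxygen, while complexes I, III and IV pump the protons that drive ATP synthase. Most subunits are encoded in the nucleus, and a few of complex IV exist in versions for contractile tissue or brown fat (Cox6a2, Cox7a1, Cox8b) beside the version found in most tissues (Cox6a1, Cox7a2, Cox8a). Cox4i2 is an isoform known from the lung itself. Cox4i1, Cox6b2, Cox8c and Ndufa4l2 were not analysed here.

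RNA of whole lung tissue was hybridised to single-colour CodeLink UniSet arrays. Each genotype, C57/BL6 wild-type or jnk1-/-, had 3 unventilated controls and 4 ventilated animals, so that 14 arrays were used in all. The jnk1-/- mice, on the same C57/BL6 background, carry a germline deletion of the gene for c-Jun-NH2-terminal kinase-1 in all tissues, and all animals were adult. The ventilated mice received room air at a tidal volume of 10 ml/kg for 8 hours under anaesthesia with a muscle relaxant, whereas controls were killed directly after anaesthesia. Ventilation and the hours under anaesthesia and muscle relaxant thus cannot be told apart. Nothing in the labels places the animals of a group in separate litters or days, so the p-values measure the spread between these arrays.

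The deposited array medians, on the log2 scale, ran from 4.98 to 6.37, and from 5.76 to 5.84 after cyclic loess. Precision is limited by how few arrays there were. Summed markers of lung epithelium stood between 11.81 and 12.58 on all arrays. The probe of Mapk8, which encodes JNK1, was dim, at 3.02 ± 0.31 (SD, n = 3) in wild-type and 1.55 ± 1.70 (SD, n = 3) in jnk1-/- controls, with an adjusted p = 0.370 from limma, and it checks the genotype little. Skeletal muscle markers separated the jnk1-/- controls from every other group: their summed log2 level was 9.63 to 10.25 there, 6.61 to 7.14 after ventilation, and at most 8.84 on any wild-type array. Over 9811 probes, wild-type control arrays 2 and 3, and jnk1-/- control arrays 1 and 2, resembled each other more than the remaining control of their group. The SD of the difference was 0.31 in both pairs, against 0.51 to 0.68. Over the members alone the wild-type pair was still the closest (0.48, against 0.535 and 0.577). The jnk1-/- pair was not, at 0.587, against 0.517 for arrays 2 and 3 and 0.804 for arrays 1 and 3. The results below were also computed without each pair. That leaves 1 control array, which was assumed to vary like the arrays of the other groups, so such values rest on that array.

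Some promoters of the genes that fell in ventilated jnk1-/- lungs are shown because subunit genes of all complexes are known to share binding sites of a few factors. Apart from that of Cox7a2 they were picked for a match to such a site, so the windows shown over-represent matches. RefSeq promoter windows (GRCm38.p6, 250 bases before to 50 after the start) matched 66 of the 79 genes, with 71 windows. The letters searched, on both strands, were the palindromic motif of nuclear respiratory factor 1 (NRF1), CCGGAAG for the ETS factor GABP, AAGATGGC for YY1 and CAAGGTCA for estrogen-related receptors (ERR). NRF1 letters stood in 16 of the 71 windows (22.5%), against 4.6% of all 32851 promoter windows. The GABP letters also stood in 16 of 71 (22.5%, against 8.86%), those of YY1 in 8 (11.3%, against 2.75%) and those of ERR in 2 (2.82%, against 1.56%). Among the 11 windows of the genes that fell in ventilated jnk1-/- lungs, NRF1 letters were found in 1, GABP letters in 3, ERR letters in 1 and YY1 letters in 0. The 4 windows with a match are given first, with the matched letters in capitals on either strand, and then that of Cox7a2, the gene with the largest difference, which held none of these letters. They lie at chr9:44920693-44920992 (Atp5l, minus strand), chr15:82354242-82354541 (Ndufa6, minus strand), chr10:80406772-80407071 (Uqcr11, minus strand), chr8:83566508-83566807 (Ndufb7, plus strand) and chr9:79759804-79760103 (Cox7a2, minus strand).
Atp5l: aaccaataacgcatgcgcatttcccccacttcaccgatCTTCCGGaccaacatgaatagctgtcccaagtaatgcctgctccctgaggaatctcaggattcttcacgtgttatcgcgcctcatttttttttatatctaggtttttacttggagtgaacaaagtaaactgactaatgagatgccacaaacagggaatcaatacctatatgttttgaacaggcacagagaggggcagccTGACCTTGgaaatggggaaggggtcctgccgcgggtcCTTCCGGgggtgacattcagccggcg
Ndufa6: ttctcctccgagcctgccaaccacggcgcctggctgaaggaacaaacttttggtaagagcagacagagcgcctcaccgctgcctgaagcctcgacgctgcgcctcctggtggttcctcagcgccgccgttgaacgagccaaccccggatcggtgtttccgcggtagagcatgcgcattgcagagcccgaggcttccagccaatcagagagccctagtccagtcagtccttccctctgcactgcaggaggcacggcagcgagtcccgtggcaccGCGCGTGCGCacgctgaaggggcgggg
Uqcr11: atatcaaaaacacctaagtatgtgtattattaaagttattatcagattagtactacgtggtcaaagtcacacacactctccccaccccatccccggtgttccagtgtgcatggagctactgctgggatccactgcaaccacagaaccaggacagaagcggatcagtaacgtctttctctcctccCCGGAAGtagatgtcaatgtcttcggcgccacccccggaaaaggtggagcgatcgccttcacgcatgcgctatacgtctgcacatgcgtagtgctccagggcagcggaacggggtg
Ndufb7: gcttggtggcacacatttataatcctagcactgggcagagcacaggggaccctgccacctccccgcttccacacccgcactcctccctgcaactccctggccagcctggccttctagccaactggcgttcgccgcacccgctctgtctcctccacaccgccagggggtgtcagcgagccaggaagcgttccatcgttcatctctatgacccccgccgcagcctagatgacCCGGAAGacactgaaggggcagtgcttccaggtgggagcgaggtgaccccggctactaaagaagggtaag
Cox7a2: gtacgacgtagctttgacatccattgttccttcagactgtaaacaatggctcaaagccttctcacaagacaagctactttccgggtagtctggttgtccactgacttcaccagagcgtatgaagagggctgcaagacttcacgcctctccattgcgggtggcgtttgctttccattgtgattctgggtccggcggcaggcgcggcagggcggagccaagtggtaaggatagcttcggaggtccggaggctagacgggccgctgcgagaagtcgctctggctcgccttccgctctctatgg
In Atp5l the capitals are GABP letters at -212 and 25 and ERR letters at -13, counted from the start. In Ndufa6 they are NRF1 letters at 24, and in Uqcr11 and Ndufb7 GABP letters at -66 and -20. Such a match is a description of the sequence and does not show that a factor is bound.

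Most member probes were bright: 59 of 79 stood at or above the 90th percentile of all probes, and their median percentile was 96.4. Their mean log2 intensities ran from 6.85 (Ndufab1) to 12.73 (Ndufc2) in complex I, from 9.03 (Sdhc) to 11.63 (Sdha) in complex II, from 7.48 (Cox6a2) to 13.27 (Cox6a1) in complex IV and from 8.44 (Atp5b) to 13.002 (Atp5d) in ATP synthase. In complex III they ran from 13.29 (Uqcrh) down to 2.08 (Uqcrq). These intensities show how well a probe was measured, not which gene was more abundant. Uqcrq was the dimmest member and lay at the floor of the authors' normalized table on every array, whereas none of the other members touched that floor.

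The question of the ventilation comparison is how the chain's genes stand after 8 hours of ventilation in each genotype. In ventilated jnk1-/- lungs 11 of the 79 genes fell and 0 rose, and in ventilated wild-type lungs 0 passed the test in either direction. Most of the others also lay lower after ventilation, by less than the test required, in both genotypes. The median level of the 79 genes, array by array, was 10.83, 10.64 and 10.72 in wild-type controls and 10.56, 10.56, 10.44 and 10.68 in ventilated wild-type mice. It was 11.25, 10.98 and 10.89 in jnk1-/- controls and 10.43, 10.53, 10.73 and 10.33 in ventilated jnk1-/- mice. The jnk1-/- groups did not overlap, and the wild-type groups overlapped by 1 ventilated array. Fewer cells of a type and less RNA per cell cannot be told apart in whole lung.

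**Figure D1:**
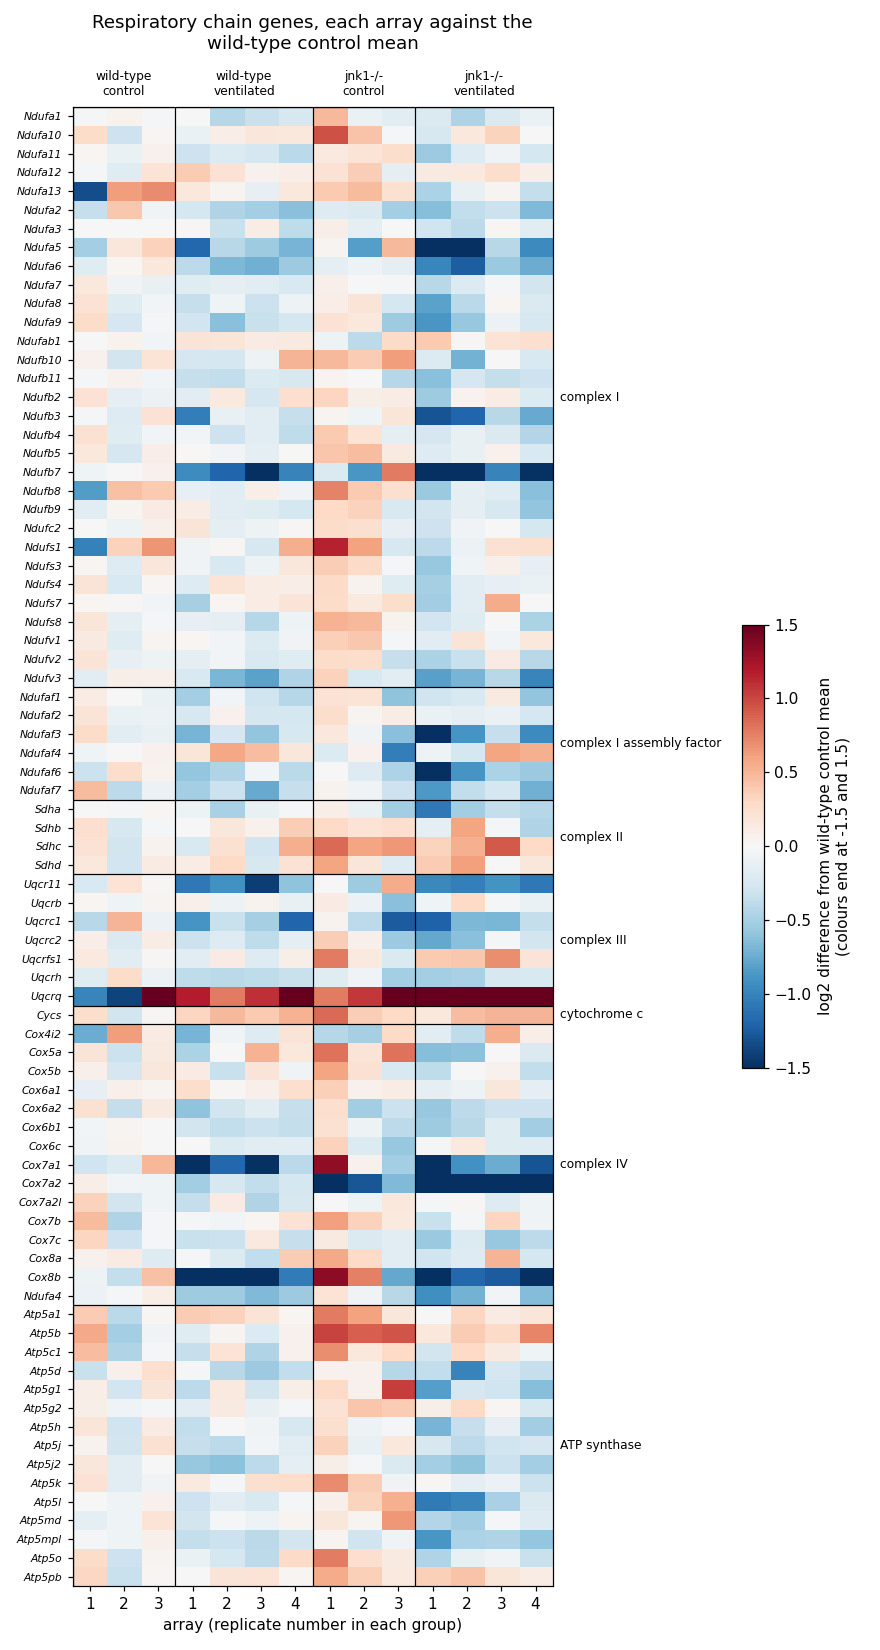
Difference of each of the 79 genes on each of the 14 arrays from the mean of the 3 wild-type controls, on a log2 colour scale that ends at -1.5 and 1.5. Genes are rows, grouped by complex, and arrays are columns, numbered within each group. The ventilated jnk1-/- columns are mostly blue (below the wild-type controls), array 1 of the jnk1-/- controls is mostly red, and Uqcrq, red across the ventilated arrays, is the dim probe at the authors' floor.

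In jnk1-/- lungs the 11 genes that fell are 13.9% of the members, where 5.01% of all 19621 probes fell and 6.73% rose, 11.7% in either direction (limma, adjusted p under 0.05). Of the 79 fold changes 70 were below 0, with a median of −0.39 on the log2 scale, while the median over all probes was −0.04 and 47.4% of all probes were above 0. Among the 713 probes at least as bright as the median member, the median was −0.02, with 7.43% fallen and 12.2% risen. All ventilated arrays stood below all control arrays for 26 members (11.2% of all probes) and above them for 1, the dim Uqcrq (12.3% of all probes).

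The lower levels were spread over complex I, complex IV and ATP synthase. All 15 ATP synthase genes had fold changes below 0, with a median of −0.47, and 2 of them fell. In complex I 29 of 31 were below 0 (median −0.39), and 5 fell. In complex IV 13 of 15 were below 0 (median −0.35), and 3 fell. Complex III was mixed, with 4 of 7 below 0, a median of −0.12 and 1 that fell. Complex II had 3 of 4 below 0 (median −0.22), the assembly factors 5 of 6 (median −0.37) and cytochrome c a fold change of −0.10, and none of these passed the test. The differences between complexes were not tested.

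**Figure D2:**
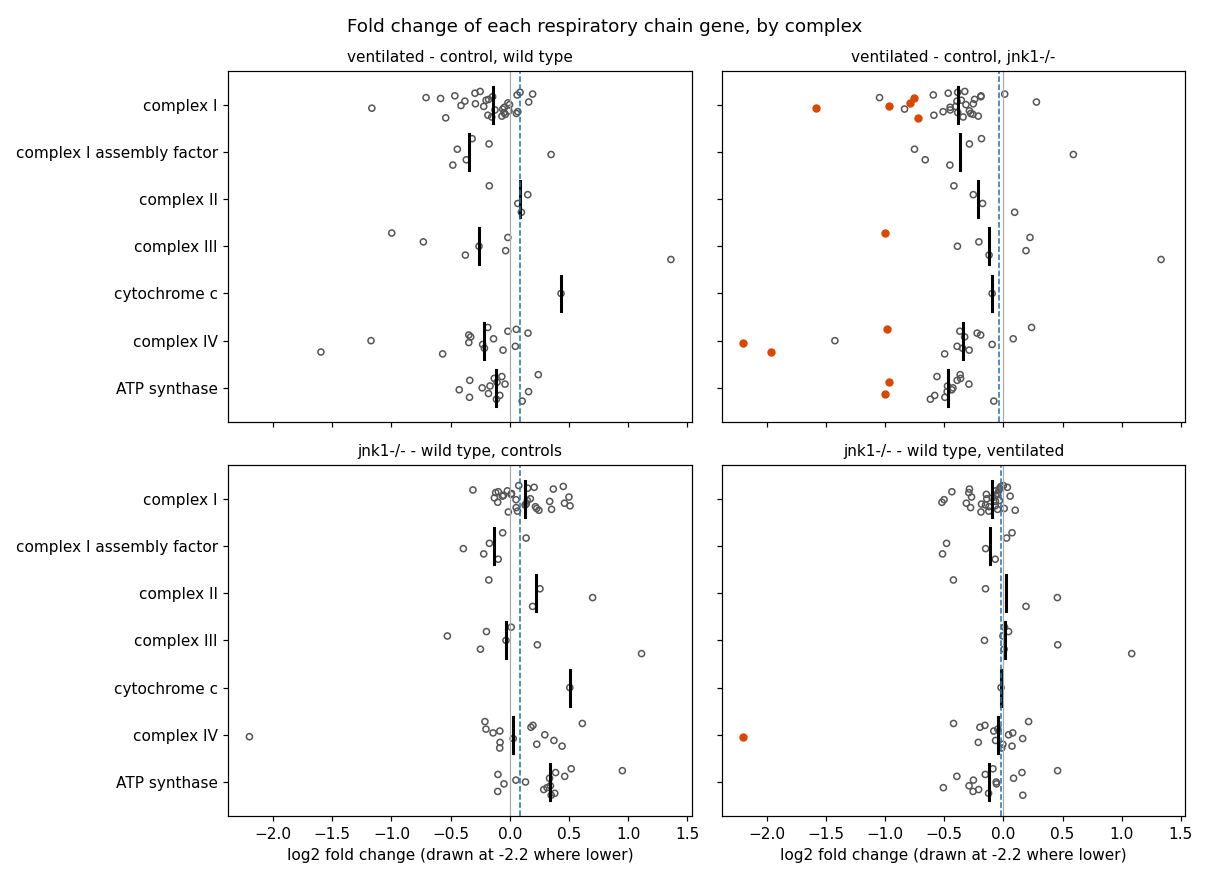
Fitted log2 fold change of each gene (points) by complex in 4 comparisons, with the median of the complex (black bar) and of all probes (dashed line). Filled points passed the test, and Cox7a2 is drawn at the left edge where it lay below it; the 11 filled points of ventilated jnk1-/- lungs are all to the left of 0.

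Within ATP synthase the catalytic F1 head and the membrane part both lay lower. Atp5l, subunit g of the membrane part (chr9:44913248-44920742), had levels of 11.49, 11.75 and 11.95 in jnk1-/- controls and 10.35, 10.43, 10.94 and 11.20 after ventilation, and of 11.41, 11.36 and 11.49 against 11.10, 11.25, 11.20 and 11.40 in wild-type mice. The jnk1-/- groups did not overlap, and 2 ventilated jnk1-/- arrays were lower than the rest. Atp5l fell by 1.002 in jnk1-/- lungs (standard error 0.215, adjusted p = 0.0123 from limma), and its wild-type fold change was −0.18 (adjusted p = 0.696). Atp5g1, which encodes the rotating c ring's subunit c, fell by 0.97 (standard error 0.26, adjusted p = 0.0330 from limma), from 10.33, 10.10 and 11.08 to 9.22, 9.79, 9.74 and 9.40. Its groups did not overlap, and control array 3 was the highest. Atp5g2, which encodes the same mature subunit c, had a fold change of −0.29 (adjusted p = 0.280 from limma). The 4 measured genes of the F1 head had fold changes from −0.56 to −0.36 and the 4 of the peripheral stalk from −0.62 to −0.08, and none of these passed the test. The call of Atp5l held without any single jnk1-/- array, whereas that of Atp5g1 was lost without control array 1 (−1.05), control array 3 (−0.68), ventilated array 1 (−0.86) or ventilated array 4 (−0.92), with adjusted p from 0.0641 to 0.103 by limma.

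In complex I the 5 genes that fell all encode supernumerary subunits, those outside the catalytic core. The 6 measured nuclear core genes (Ndufs1, Ndufs3, Ndufs7, Ndufs8, Ndufv1 and Ndufv2) had fold changes from −0.59 to −0.21, and 0 passed the test, against 5 of 25 supernumerary genes, a split made after the values were seen and not tested. Ndufb7 (chr8:83566758-83571623), of the proton-pumping membrane arm, had levels of 9.12, 8.47 and 10.12 in jnk1-/- controls and 6.99, 7.43, 8.34 and 7.86 after ventilation. It fell by 1.58 (standard error 0.38, adjusted p = 0.01997 from limma). In wild-type mice Ndufb7 went from 9.28, 9.34 and 9.40 to 8.40, 8.15, 7.81 and 8.34, a fold change of −1.17 that missed the threshold (adjusted p = 0.108 from limma) although these groups did not overlap either. Ndufa6, a subunit of the peripheral arm (chr15:82350139-82354291) fell by 0.76 in jnk1-/- lungs (standard error 0.18, adjusted p = 0.0201 from limma), from 11.99, 12.07 and 12.02 to 11.17, 10.91, 11.59 and 11.40. The Ndufa6 controls lay close together and above every ventilated array. Its wild-type fold change was −0.59 (adjusted p = 0.0941 from limma), also without overlap. Ndufb3 fell by 0.97 and Ndufb10 by 0.79, both membrane arm subunits, and Ndufv3, of the NADH-oxidising module, fell by 0.72 (adjusted p = 0.0370, 0.0490 and 0.0447 from limma). For these 3 genes as well, no ventilated jnk1-/- array reached a control array. The exceptions in complex I were Ndufab1, the mitochondrial acyl carrier protein, at 0.28 and Ndufa12 at 0.01, neither past the test. Without jnk1-/- control array 1, 0 of the 5 calls in complex I held (fold changes −1.64 to −0.54). Those of Ndufb3, Ndufb10 and Ndufv3 were also lost without any other jnk1-/- array except ventilated array 3. That of Ndufb7 was lost without control array 3 (−1.14) or ventilated array 2 (−1.51), and that of Ndufa6 without control array 2 (−0.74) or ventilated array 2 (−0.64).

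In complex III, Uqcr11, a small supernumerary subunit (chr10:80402997-80406821), had nearly the same fold change in both genotypes. Its levels were 10.80, 10.26 and 11.35 in jnk1-/- controls and 9.83, 9.77, 9.90 and 9.72 after ventilation, and 10.57, 10.99 and 10.81 against 9.72, 9.89, 9.38 and 10.19 in wild-type mice. Neither pair of groups overlapped. Uqcr11 fell by 0.999 in jnk1-/- lungs (standard error 0.26, adjusted p = 0.0273 from limma), and its wild-type fold change of −0.998 (standard error 0.26) had an adjusted p = 0.0534. Uqcrfs1, the iron-sulphur protein of the complex, had a fold change of 0.19 and the core protein Uqcrc2 one of −0.39, neither past the test. In complex IV, Cox5a, a subunit on the matrix side, went from 8.80, 8.18 and 8.80 to 7.34, 7.36, 7.97 and 7.76 in jnk1-/- lungs, without overlap. Cox5a fell by 0.98 there (standard error 0.27, adjusted p = 0.0367 from limma), and its wild-type fold change was 0.05. Without jnk1-/- control array 1 both calls were lost (Uqcr11 −1.001, Cox5a −0.88), as they were without control array 3 (−0.73, −0.88) and without ventilated arrays 1 (−1.01, −0.89), 2 (−0.99, −0.90) or 4 (−0.97, −1.03). The other 2 complex IV genes that fell, Cox7a2 and Cox8b, are described below.

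**Figure D3:**
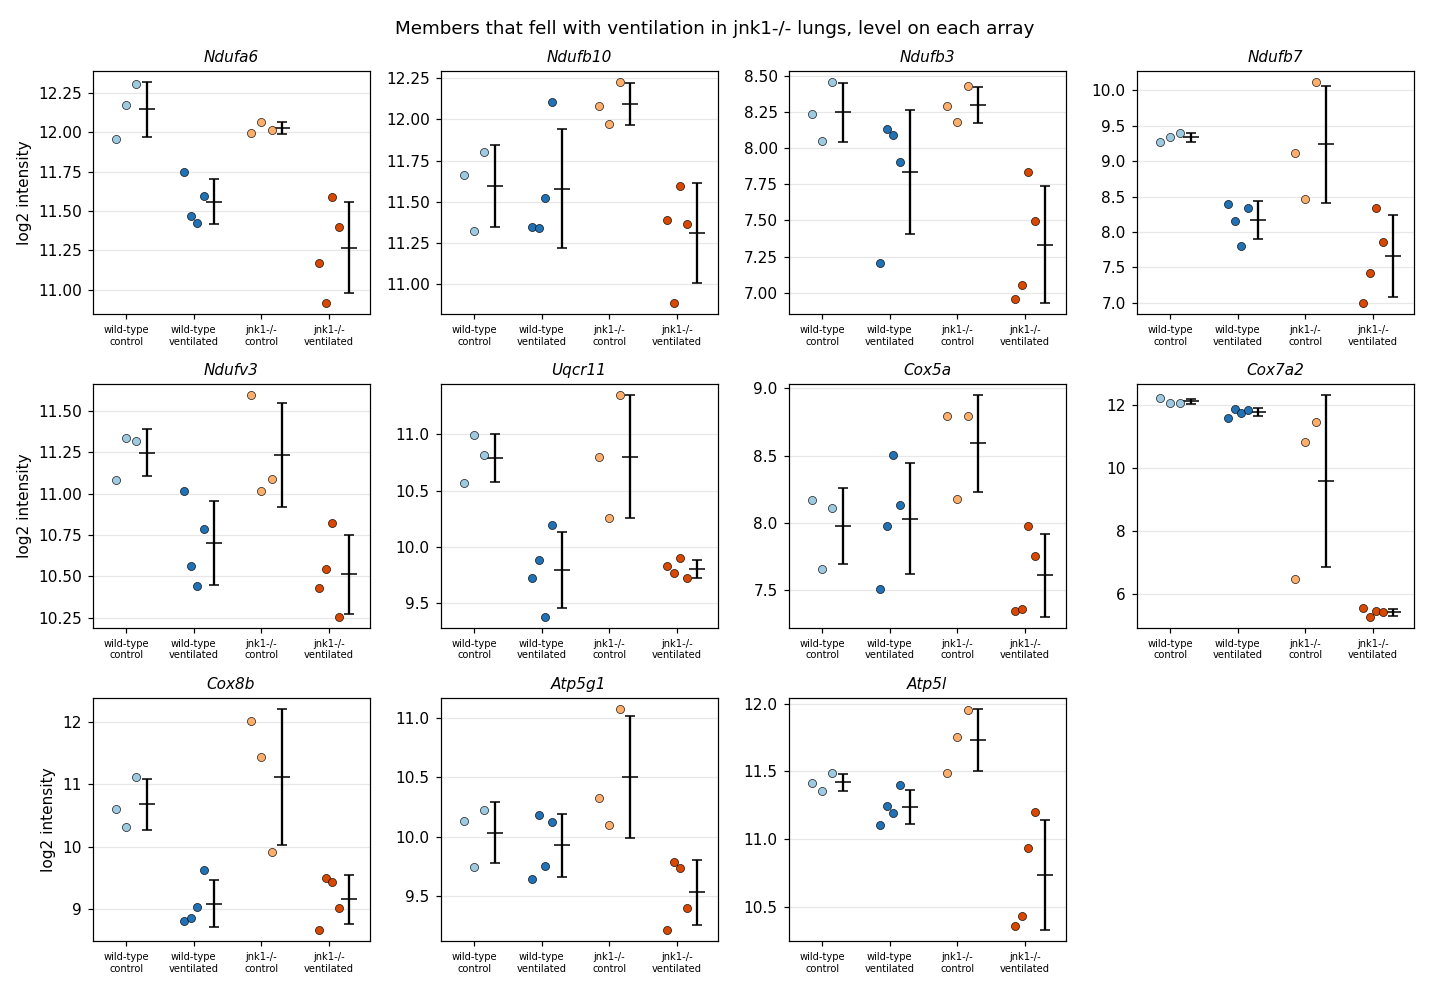
Log2 intensity of the 11 genes that fell with ventilation in jnk1-/- lungs, by array (points), with the mean and SD of each group (bars; 3 arrays in a control group, 4 in a ventilated one); each panel has its own scale. In every panel the ventilated jnk1-/- points lie below the jnk1-/- control points, and in Ndufb7, Ndufa6, Uqcr11, Ndufv3, Cox8b and Cox7a2 the ventilated wild-type points also lie below their controls.

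How many genes fell depended on single arrays. Array 1 of the jnk1-/- controls was the highest of the 14 arrays for 37 of the 79 members, and ventilated jnk1-/- array 1 the lowest for 30. Without jnk1-/- control array 1 the count was 2 of 79, Cox7a2 and Atp5l, and the median −0.24, where 2.51% of all probes fell. Without control arrays 2 or 3 it was 6 or 8, where 2.75% or 4.21% of all probes fell. Over all probes 3.72%, 3.19%, 5.96% or 3.01% fell without ventilated jnk1-/- arrays 1, 2, 3 or 4, and the count of members was 5, 4, 17 or 5. With control array 3 as the only jnk1-/- control, arrays 1 and 2 left out, the members' median was −0.17, against −0.07 over all probes. With only the jnk1-/- arrays in the fit 0 of the 11 passed. The methods' t-test gave 17 members at an unadjusted p under 0.05 (the share of all probes was not counted) and 0 after adjustment. Among markers of cell types, 13 of 17 skeletal muscle, 9 of 13 squamous epithelial, 4 of 10 adipocyte and 4 of 7 B cell markers fell in the same comparison. So did 2 of 8 T and NK cell, 1 of 11 cardiac, 1 of 8 lung epithelial and 0 of 8 lung endothelial markers. Of 13 neutrophil markers 8 rose and 1 fell, and of 7 macrophage markers 1 rose and 1 fell. Over all probes 5.01% fell and 6.73% rose. The part of these cells in the members' lower levels was not tested.

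In wild-type lungs 0 of the 79 genes passed the test, while 2.2% of all probes rose and 1.5% fell in that comparison, 3.7% in all (limma, adjusted p under 0.05). At an unadjusted p under 0.05, 11 members were lower and 1 was higher. The share of all probes at that cut was not counted, so an excess cannot be read from these numbers. Of the fold changes 61 were below 0, with a median of −0.15 against 0.08 over all probes, and of −0.10 without wild-type control array 1. In the same comparison 7 of 13 neutrophil markers rose (median 3.34), as did 1 of 7 macrophage and 1 of 13 squamous epithelial markers. Of the others 2 of 10 adipocyte, 2 of 7 B cell, 1 of 11 cardiac and 1 of 8 lung endothelial markers fell. The part of these cells was not tested. All ventilated arrays stood below all controls for 16 members (10.5% of all probes) and above them for 3 (11.3% of all probes). By complex, the medians were −0.26 in complex III, −0.22 in complex IV, −0.15 in complex I, −0.11 in ATP synthase and 0.08 in complex II. Cycs, the mobile electron carrier that also takes part in apoptosis, was 1 of the 3 that separated upwards. Its levels were 10.97, 10.43 and 10.72 in wild-type controls and 11.02, 11.20, 11.10 and 11.23 after ventilation, and 11.56, 11.07 and 11.01 in jnk1-/- controls against 10.87, 11.17, 11.22 and 11.22. The wild-type groups did not overlap and the jnk1-/- groups did. The fold changes of Cycs were 0.43 and −0.10, and neither passed the test (adjusted p = 0.223 and 0.814 from limma). Lower members were called in wild-type lungs under other settings: 4 with median centring only (Ndufa6, Ndufb7, Uqcr11 and Cox8b), 5 with array weights (these and Ndufa4), and 2 in the authors' table (Ndufa6 and Uqcr11). Over all probes 3.3%, 4.5% and 2.98% were called lower in these settings, in that order. Without wild-type control array 3 the dim Uqcrq was called higher (2.55), without ventilated wild-type array 4 Uqcr11 was called lower (−1.13). Without control arrays 2 and 3 together Ndufa13 was called higher (1.39), which restates control array 1, the only one left, where its level was 10.61 against 12.57 and 12.65 on the pair.

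The genotypes' ventilation effects were compared directly as well. The difference of the effect passed the test for 0 of 79 members, where 0.204% of all probes passed as higher and 0.194% as lower, 0.398% in all (limma). At an unadjusted p under 0.05, 6 members were lower (Atp5l, Atp5g1, Atp5k, Ndufb10, Cox5a and Cox7a2) and 0 higher. All probes were not counted at that cut, so these numbers have no background to compare with. The median difference was −0.22, against −0.11 over all probes, and it became 0.19 with median centring only (0.03 over all probes). It was −0.047 without jnk1-/- control arrays 1 and 2 (−0.13 over all probes). Without jnk1-/- control array 1 alone it was −0.11, near the −0.12 over all probes, and without ventilated jnk1-/- array 1 it was −0.14. With quantile normalization it was −0.28, against −0.29 over all probes. Without jnk1-/- control array 1 the difference passed for Cox7a2 (−5.39, adjusted p = 1.07e-05 from limma), and with wild-type control array 1 as the only wild-type control for Ndufa13 (−1.99, adjusted p = 0.0337).

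**Figure D4:**
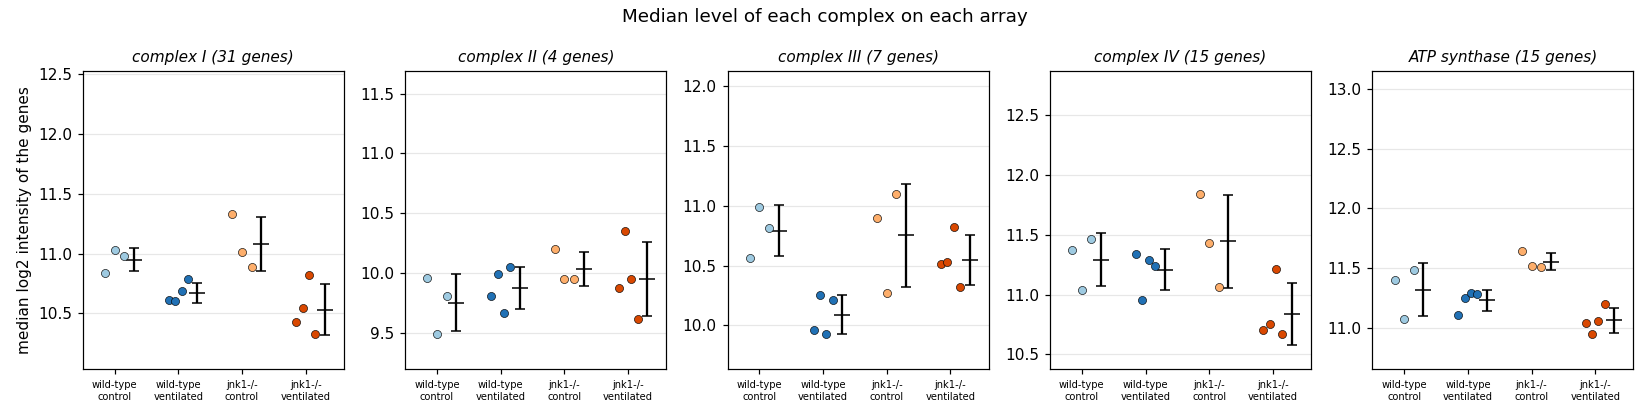
Median log2 intensity of the genes of each complex on each array (points), with the mean and SD of each group (bars; 3 arrays in a control group, 4 in a ventilated one). The axes span equal log2 ranges. The ventilated jnk1-/- points lie below the jnk1-/- controls in complex I and ATP synthase and overlap them in complexes II, III and IV.

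Cox7a2, the subunit VIIa isoform of most tissues (chr9:79755241-79771422), had the largest difference of all members. Its levels were 12.21, 12.07 and 12.05 in wild-type controls and 11.60, 11.88, 11.74 and 11.84 in ventilated wild-type mice. In jnk1-/- mice they were 6.46, 10.83 and 11.45 in controls and 5.53, 5.26, 5.44 and 5.41 after ventilation. The values fell into 5 low arrays between 5.26 and 6.46, all from jnk1-/- mice, and 9 high arrays between 10.83 and 12.21, with none between. All jnk1-/- arrays were below all wild-type arrays, and jnk1-/- control array 1 stood with the ventilated animals of its genotype. Between ventilated genotypes Cox7a2 was lower in jnk1-/- mice by 81.9-fold (log2 difference −6.36, standard error 0.80, adjusted p = 0.00266 from limma), and it passed under every alternative run. The stretch of Cox7a2 matched by its probe was not known here, so that in all comparisons of this gene a lower RNA level and a sequence the probe reads less well cannot be told apart. It was the only member called in that comparison, in which 0.24% of all probes were higher and 0.285% lower, 0.525% in all.

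The other comparisons of Cox7a2 turned on jnk1-/- control array 1. With ventilation in jnk1-/- lungs it fell by 4.17 (standard error 0.86, adjusted p = 0.0104 from limma), and by 5.73 (adjusted p = 2.53e-07) without that array. Between controls the difference was −2.53 (adjusted p = 0.150 from limma), and −0.97 (adjusted p = 0.0462) without that array. In wild-type lungs the fold change was −0.35 (adjusted p = 0.871 from limma), although the arrays did not overlap. No Cox7a2 value lay at the authors' floor. Of 6 probes of genes within 1 Mb (Col12a1, Tmem30a with 2 probes, Filip1, Senp6 and Impg1), 0 passed the test between genotypes in controls or in ventilated mice. With ventilation only Senp6 passed, which rose by 0.66 in jnk1-/- lungs (adjusted p = 0.0485 from limma). Cox7a2l, a relative that takes part in joining complexes III and IV, had levels of 11.08, 10.46 and 10.67 in wild-type controls and 10.37, 10.86, 10.29 and 10.50 in ventilated wild-type mice. In ventilated jnk1-/- mice it was at 10.71, 10.75, 10.54 and 10.67, with a difference between ventilated genotypes of 0.16 (adjusted p = 0.844 from limma).

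Of the tissue isoforms of complex IV, Cox8b fell, while Cox7a1 and Cox6a2 did not pass the test. Cox8b, the subunit VIII isoform of heart, skeletal muscle and brown fat (chr7:140898942-140900446), had levels of 10.60, 10.32 and 11.11 in wild-type controls and 8.81, 8.85, 9.04 and 9.62 after ventilation. In jnk1-/- mice these were 12.01, 11.43 and 9.91 against 8.66, 9.50, 9.43 and 9.02. Ventilated arrays lay below controls in both genotypes without overlap. Cox8b fell by 1.97 in jnk1-/- lungs (standard error 0.43, adjusted p = 0.0141 from limma). It did not pass without jnk1-/- control array 1 (−1.52, adjusted p = 0.0606), without control array 2 (−1.81, adjusted p = 0.0574) or without both (−0.76, adjusted p = 0.341). In wild-type lungs its fold change was −1.60 (adjusted p = 0.0650 from limma). Cox7a1, the VIIa isoform of the same tissues, went from 8.57, 8.67 and 9.36 to 7.23, 7.69, 7.39 and 8.46 in wild-type mice and from 10.20, 8.93 and 8.36 to 7.30, 7.96, 8.12 and 7.57 in jnk1-/- mice, again without overlap. Its fold changes were −1.17 (adjusted p = 0.150 from limma) and −1.42 (adjusted p = 0.0515), and neither passed, although Cox7a1 did in jnk1-/- lungs under 6 alternatives, namely without control array 3 (−1.82, adjusted p = 0.0261), with quantile normalization, in the authors' table, without dim probes, with the floor at the 5th percentile and with array weights (adjusted p from 0.0163 to 0.0484 by limma in these 5). Cox6a2, the VIa isoform of heart and skeletal muscle, had fold changes of −0.35 and −0.19 and a difference of −0.20 between control genotypes, none past the test. Cox4i2, the isoform known from lung, had fold changes of −0.19 and 0.24. The counterparts Cox6a1, Cox6b1, Cox8a and Ndufa4 had fold changes between −0.50 and −0.22 in jnk1-/- lungs and between −0.57 and 0.15 in wild-type lungs, and none passed.

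**Figure D5:**
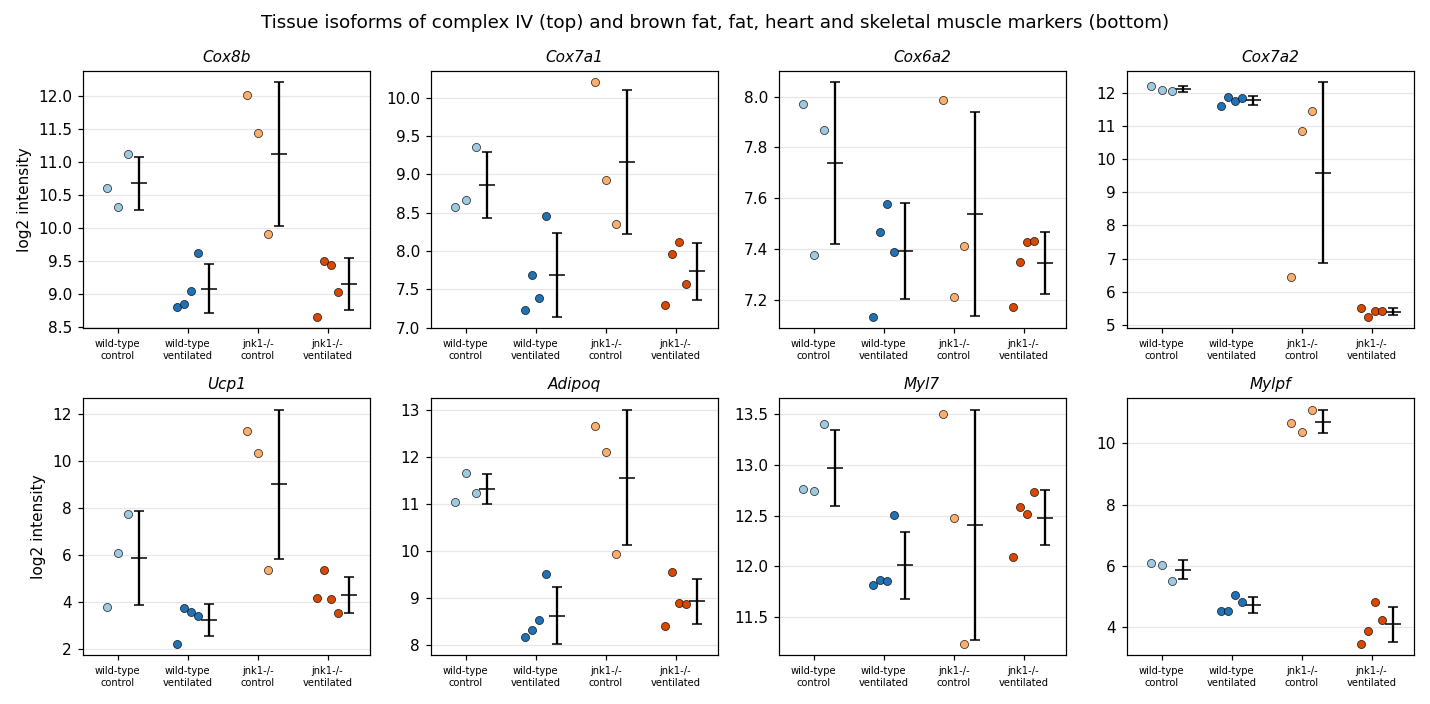
Log2 intensity by array of the tissue isoforms of complex IV and Cox7a2 (top) and of markers of brown fat (Ucp1), fat (Adipoq), heart (Myl7) and skeletal muscle (Mylpf, bottom), with the mean and SD of each group (bars; 3 arrays in a control group, 4 in a ventilated one); each panel has its own scale. Cox8b, Ucp1 and Adipoq are high on jnk1-/- control arrays 1 and 2 and lower on array 3, while Mylpf is high on all 3 and Cox6a2 is not raised.

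Markers of fat and muscle were measured beside these isoforms. Ucp1, the uncoupling protein of brown fat, had levels of 11.30, 10.36 and 5.36 in jnk1-/- controls, and of 4.18, 5.37, 4.14 and 3.52 after ventilation. The same 2 jnk1-/- control arrays were thus high in Ucp1 and in Cox8b. Ucp1 fell by 4.71 (adjusted p = 0.0313 from limma), and in wild-type mice it was 3.78, 6.09 and 7.74 in controls and 2.21, 3.73, 3.55 and 3.38 after ventilation. Adipoq, an adipocyte hormone, fell by 2.70 in wild-type and by 2.64 in jnk1-/- lungs (adjusted p = 0.0234 and 0.0118 from limma). Summed adipocyte markers were 9.67 to 10.11 in wild-type controls and 8.47 to 9.15 after ventilation, and 9.54 to 11.37 against 8.43 to 9.26 in jnk1-/- mice. Summed cardiac markers were 10.50 to 11.22 against 9.49 to 10.20 in wild-type mice and 9.46 to 11.15 against 9.66 to 10.26 in jnk1-/- mice. The part of these cells in the levels of Cox8b and Cox7a1 was not tested. Without Cox6a2, Cox7a1 and Cox8b, the remaining 76 members had a median of −0.38 in jnk1-/- lungs, with 10 fallen, and of −0.14 in wild-type lungs.

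Between control genotypes 0 of 79 members passed the test, where 1.88% of all probes were higher and 2.18% lower in jnk1-/- mice, 4.06% in all (limma, adjusted p under 0.05). At an unadjusted p under 0.05, where all probes were not counted for comparison, 4 were higher and 1 lower. The median difference was 0.13, against 0.09 over all probes, and it became −0.36 with median centring only, which moved the median of all probes to −0.06, to 0.07 without wild-type control array 2, to −0.001 without jnk1-/- control array 1 and to −0.05 without control arrays 1 and 2. All jnk1-/- controls stood above all wild-type controls for 9 members (13.6% of all probes) and below them for 1, Cox7a2 (13% of all probes). The largest of the 9 was Atp5b, the catalytic beta subunit of the F1 head, at 8.71, 7.64 and 8.09 in wild-type and 9.15, 9.05 and 9.09 in jnk1-/- controls. The Atp5b difference of 0.95 had an adjusted p = 0.0560 from limma, and 0.0104 without wild-type control array 1, and it also passed in the authors' table, without dim probes and with array weights. Without wild-type control array 3 the dim Uqcrq was called higher in jnk1-/- mice (2.30), and with wild-type control array 1 as the only wild-type control Ndufa13 was (1.70). Sdhc, a membrane anchor of complex II, differed by 0.70 (adjusted p = 0.150 from limma), and the other 3 complex II genes by −0.18 (Sdha), 0.25 (Sdhb) and 0.19 (Sdhd), none past the test. Between ventilated genotypes the median difference was −0.07, against −0.02 over all probes, and it was −0.02 without ventilated jnk1-/- array 1 and −0.16 without ventilated jnk1-/- array 3. Members other than Cox7a2 ranged from −0.52 to 1.08, the latter in the dim Uqcrq at the authors' floor, and the next highest was Uqcrfs1 at 0.46. All ventilated jnk1-/- arrays stood above all ventilated wild-type arrays for 2 members, Atp5b and Uqcrfs1 (3.08% of all probes), and below them for 2, Cox7a2 and Atp5mpl (3.25% of all probes).

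Genes around the respiratory chain were counted from fixed lists in the same fit. With ventilation 5.01% of all probes fell and 6.73% rose in jnk1-/- lungs, and 1.5% and 2.2% in wild-type lungs. Of 16 regulators of mitochondrial biogenesis, 3 rose and 0 fell in ventilated jnk1-/- lungs: Pprc1, a coactivator of NRF1, by 1.48, Yy1 by 0.95 and Sirt1, a deacetylase, by 0.82 (adjusted p = 0.00497, 0.0396 and 0.0306 from limma). The list's median there was 0.30, against −0.04 over all probes, and 0 of 16 passed in wild-type lungs. Of 18 assembly factors outside the rule, Ttc19 rose by 1.91 and Uqcc2 fell by 0.76 in jnk1-/- lungs, both of complex III. Of 67 mitochondrial ribosomal proteins, 5 fell and 0 rose there, among them Mrpl14 (−1.11) and Mrpl36 (−1.67), with a list median of −0.18. Of 21 import genes, Timm9 rose by 1.79 and Timm17b fell by 0.60, and 0 members of these last 3 lists passed in wild-type lungs. Timm9 was also lower in jnk1-/- than in wild-type controls (−1.58).

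The lists of fuel pathways upstream of the chain are described by their counts, beside the shares of all probes that passed (in jnk1-/- lungs 5.01% lower and 6.73% higher, in wild-type lungs 1.5% and 2.2%). Of 15 fatty acid oxidation genes, 4 fell and 0 rose in jnk1-/- lungs: Hadh (−1.67), Etfb (−1.64), which hands electrons towards the chain, Acads (−1.24) and Eci1 (−1.08). Their list had a median of −0.66, with 14 of 15 lower, and in wild-type lungs 1 of 15 fell, Hadh by 1.18. Of 19 genes of pyruvate dehydrogenase and the citric acid cycle, 2 fell in jnk1-/- lungs, Pdha1 by 1.55 and Pdk2 by 1.04, and 0 in wild-type lungs. Of 14 carriers, porins and uncouplers, 1 rose and 2 fell in jnk1-/- lungs, and 1 rose and 0 fell in wild-type lungs. Slc25a5, which exchanges ADP and ATP across the inner membrane, rose by 0.86 in wild-type and 0.81 in jnk1-/- lungs. Slc25a1, the citrate carrier, was 1 of the 2 that fell in jnk1-/- lungs, by 1.60. Of 17 glycolysis genes, Slc2a1, a glucose transporter, rose by 1.45 and 1.17 and Hk2, a hexokinase, by 1.12 and 0.82 in wild-type and jnk1-/- lungs. Pfkm, the muscle phosphofructokinase, fell by 1.15 and 1.43 in the same comparisons. Eno3 and Pgam2, which are also muscle isoforms, fell by 1.45 and 1.91 in jnk1-/- lungs. Acadm was lower in jnk1-/- than in wild-type ventilated lungs (−2.67, adjusted p = 0.0255 from limma).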

How the data were processed

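Per the labels, total RNA of mouse lung was labelled with Cy5 and hybridised to CodeLink UniSet I arrays. The authors deposited, for each of 14 arrays, log2 intensities of 19621 probes that were not normalized between arrays, and a table of log2 values they had normalized by cyclic loess, whose floor of 3.12 holds 24.5% of its values. The quality filter of the methods was not applied here.

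Cyclic loess was run on the deposited array values in 3 rounds across every pair (own code in R 4.3.3), leaving out the lowest deposited value (1.86% to 10.7% of the probes of an array). Values under the 1st percentile of those above it were then set to that percentile, −0.63. The plan gave the percentile over all values, which had no effect because more than 1% lay at the lowest value. The result correlated with the authors' table at 0.99 or more above its floor. Probes were named by the platform's probe table (15353 name 1 gene, 91 several, 4177 none), and positions and promoters come from RefSeq (GRCm38.p6). With limma 3.58.1 (lmFit, eBayes), 5 contrasts of the 4 group means were tested on all 14 arrays, and p-values, adjusted for all probes by Benjamini-Hochberg, were called under 0.05. Fitted differences are called fold changes on the log2 scale, and "fell" and "rose" are used for those past the threshold. Levels summed over markers are log2 of the mean linear intensity. The steps were tested on simulated data. Motif letters were searched in both directions. Figures were drawn in matplotlib 3.10.9.

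Members and lists were chosen with earlier results of these data known. The genes named are all members past the threshold, tissue isoforms of complex IV with their counterparts, Cycs, the Sdh genes, the brightest and dimmest member of each complex, and up to 4 genes of each other list by adjusted p. Others (Atp5b, Atp5mpl, Atp5g2, Uqcrfs1, Uqcrc2, Ndufa12, Ndufa13, Atp5k and the core genes of complex I) were named after their values were seen. Alternatives covered normalization, the authors' table, the methods' t-test, the arrays fitted, dim probes (lowest 25%), the floor, a replicate block, array weights and left-out arrays. The 2 settings that leave out a pair of arrays together were chosen after seeing the data.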

Additional observations from a re-analysis of the deposited data

Results flagged for a closer look

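In 66 groups of 4 arrays (most of the named genes and the medians of the complexes, in the ventilated groups), 1 array stood far from the other 3 in 4 cases, and chance gives about 1 in 20. In ventilated jnk1-/- lungs, array 3 had a Cox8a level of 11.27, against 10.46 to 10.56 on the other 3 arrays. The median of the complex IV genes was 11.22 on the same array, against 10.67 to 10.75. Array 1 of that group had a Cycs level of 10.87, against 11.17 to 11.22. In ventilated wild-type lungs, array 3 had an Ndufa4 level of 11.80, against 11.91 to 11.92 on the others, a gap of little size among closely spaced values.

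The difference of the ventilation effect between genotypes passed the test for 0 of the 79 members.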

How the results depend on the processing

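Arrays of the other genotype were not left out singly from a ventilation comparison. Under the alternatives run for each comparison, the median fold change of the members stayed below 0 with ventilation, and 57 to 74 of 79 members were lower in jnk1-/- and 53 to 76 in wild-type lungs. For single genes, 384 values were recomputed: 288 kept their direction and side of the threshold, 81 lost the call, 15 gained it and 0 changed direction. The cause was not tested unless stated. With ventilation in wild-type lungs, where 0 members were called, the count was 2 with the fast form of cyclic loess, 4 with median centring only, 2 in the authors' table, 2 with only the arrays of the groups compared, 2 without dim probes (fewer probes tested), 1 with the floor at the 5th percentile and 5 with array weights. It was 0 to 1 without a single array, where 0.448% to 1.63% of all probes were called lower and 1.08% to 3.69% higher. Over all probes 2.05% were called lower with the fast form, 3.3% with median centring only, 2.98% in the authors' table and 1.18% with only the arrays compared. This share was 3.41% without dim probes, 1.95% with the floor at the 5th percentile and 4.5% with array weights. The median of −0.15 became −0.50 with median centring only. With ventilation in jnk1-/- lungs, where 11 were called, the count was 18 in the authors' table and 0 with the methods' t-test. It was 17 without dim probes, 28 with array weights and 2 to 17 without a single array. With only the arrays compared it was 1, the dim Uqcrq (1.33), and 0 of the 11. The share of all probes that fell moved as well. It was 7.18% in the authors' table, 0.0866% with the methods' t-test, 9.04% without dim probes and 9.13% with array weights. Without a single array it was 2.51% to 5.96%. The median of −0.39 was −0.50 to −0.24 without a single array. Without jnk1-/- control arrays 1 and 2 it was −0.17, against −0.07 over all probes. Between control genotypes, where 0 were called, 1 was called higher in the authors' table, 1 without dim probes and 2 with array weights. Over all probes 2.7%, 3.28% and 5.95% were called higher in these settings, in that order. Without a single array 0 to 1 member was called, where 0.612% to 3.12% of all probes were higher and 0.571% to 2.34% lower. The median between control genotypes, 0.13, became −0.36 with median centring only. It was −0.05 without jnk1-/- control arrays 1 and 2, against 0.11 over all probes. For the difference of the effect, 0 to 1 member was called without a single array. The call came without jnk1-/- control array 1, where 0.133% of all probes were called lower. The median of −0.22 became 0.19 with median centring only, against 0.03 over all probes. Without jnk1-/- control arrays 1 and 2 it was −0.047, against −0.13 over all probes. Between ventilated genotypes 1 member was called under every alternative run.

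Leaving out a pair of control arrays leaves 1 array in that group, whose spread is then taken from the other groups. Replicate numbers name the arrays and do not pair them: deviations of same-numbered arrays correlated between −0.05 and 0.08. With the replicate number as a block, 7 members fell in jnk1-/- lungs, all of them among the 11, where 2.69% of all probes fell. The other counts of calls did not change. Intensity over background limits Uqcrq, and Uqcrc1, at a mean of 4.86, is the next dimmest member.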
